A study of Mus musculus with 10 samples.

Results

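Activated_3 is 1 of the 5 states into which the deposited annotation divides the microglia of the injected mouse hippocampus. Its members were taken as all cells annotated as microglia with the fine state Activated_3, which is the same set as microglial subcluster 8. They numbered 1034 of 21630 microglia (4.78%), and 1034 of 68914 annotated cells (1.5%) among 108266 barcodes. The hippocampi came from male wild-type C57BL/6 mice aged 11 weeks, killed 3 days after bilateral hippocampal injection. Vehicle went to 4 mice. Neurofilament light chain, NfL, went to 3 mice in its full length (FL-NfL) and to 3 as the coiled-coil part alone (CC-NfL), each at 1 mg/ml. Every mouse, vehicle included, had the injection itself, and no group analysed here received an unrelated protein. Each mouse gave 1 single-cell library from sorted live cells, and the labels place 6 libraries in batch b1 and 4 in batch b2, with each group in both. The comparison with vehicle addressed which cells respond when this axonal protein is supplied from outside.

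Microglia are the resident macrophages of brain tissue. Those in healthy tissue are called homeostatic, and injury or foreign protein can shift them into activated states with other gene programmes. The genes named as markers of the Activated_3 state are Ifit3 and Isg15, which are induced by type I interferon through the receptor IFNAR and the STAT factors, and Ccl4, a chemokine that draws other immune cells. Interferon-responding microglia are a known activated form in injured, infected and aged brain. The deposited table gives names and map positions and no gene values, so these markers were not measured here and the name of the state was taken as given.

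Libraries held 3150 to 14141 annotated cells and 939 to 4137 microglia, and these totals set the precision of each share. No annotated cell disagreed with the labelled condition or batch (0 of 68914). Of the Activated_3 cells, 36 carried a barcode that also occurred in another library, 25 of them as an annotated cell there, and no barcode was shared by a pair of Activated_3 cells. Vehicle library 1 stood apart: it held the fewest microglia (939) and the lowest shares of Activated_1 (5.01%) and Activated_2 (4.90%) of all 10 libraries. The main comparisons are therefore given with and without it. Among the vehicle libraries its Activated_3 share of microglia did not count as an outlier by Dixon's gap ratio. That ratio, the gap to the next library over the range, was 0.594 against a critical value of 0.829.

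Activated_3 was a small state in every library. It was the smallest of the 5 states in 6 libraries and the fourth in 4, the latter being vehicle libraries 2 and 3 and FL-NfL libraries 1 and 3, where proliferating microglia were fewer. Over all libraries subcluster 8 (1034 cells) was larger than the homeostatic subcluster 2 (972) and smaller than the proliferating subcluster 9 (1165). Activated_1 (subcluster 6) held 1850 cells and Activated_2 (subcluster 7) 3982. The homeostatic subclusters 1, 3, 4 and 5 held 3221, 2618, 3092 and 3696. Activated_3 made up 15.1% of the 6866 activated microglia. Vehicle libraries gave 345 of its cells (33.4%), FL-NfL libraries 261 (25.2%) and CC-NfL libraries 428 (41.4%). CC-NfL library 3 alone gave 264 (25.5%) and vehicle library 1 gave 5 (0.484%).

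In the 4 vehicle libraries Activated_3 made up 0.532%, 6.08%, 4.56% and 3.83% of microglia, from 5, 75, 151 and 114 cells. After FL-NfL it made up 7.61%, 3.73% and 3.97%, from 104, 45 and 112 cells, and after CC-NfL 4.28%, 4.65% and 6.38%, from 61, 103 and 264 cells. Apart from vehicle library 1 the groups overlapped over most of their range. FL-NfL library 1 and CC-NfL library 3 lay above every vehicle library, while FL-NfL library 2 lay below 3 of the 4. The exact 95% interval of vehicle library 1 (0.173% to 1.24%, Clopper-Pearson, counting error only) ended below the lower bound of every other library, the lowest of which was 2.73% in FL-NfL library 2. The spread between mice exceeded counting error. Among vehicle libraries the SD was 2.34 percentage points (1.15 without library 1) against 0.496 from counting alone, among FL-NfL libraries 2.17 against 0.542, and among CC-NfL libraries 1.12 against 0.492.

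**Figure D1:**
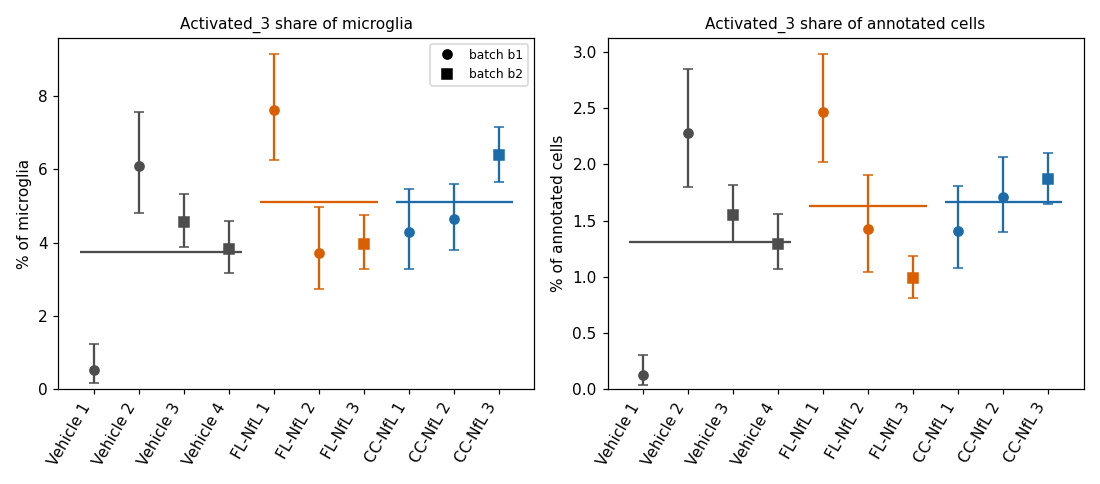
Activated_3 cells of each library as a percentage of its microglia (left) and of its annotated cells (right); points are libraries, circles batch b1 and squares batch b2, error bars exact 95% counting intervals, horizontal lines group means. Vehicle library 1 sits at 0.532% of microglia, below all others, and the remaining 9 libraries lie between 3.73% and 7.61% with the 3 groups overlapping.

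Mean shares of microglia were 3.75% ± 2.34 in vehicle libraries (SD, n = 4), 5.10% ± 2.17 in FL-NfL libraries (n = 3) and 5.11% ± 1.12 in CC-NfL libraries (n = 3), so both protein groups averaged 1.36 times the vehicle mean. For FL-NfL against vehicle the log2 odds ratio was 0.89 (SE 0.63, 95% interval -0.42 to 2.20, adjusted p = 0.287 in limma over the 5 states). For CC-NfL it was 0.95 (SE 0.63, interval -0.36 to 2.26, adjusted p = 0.208). For both proteins together it was 0.92 (SE 0.54, interval -0.19 to 2.03, adjusted p = 0.167). A quasi-binomial model gave smaller log2 odds ratios of 0.29, 0.48 and 0.38 in the same order (adjusted p = 0.666, 0.300 and 0.456). Limma's p-values rest on the spread between mice, largely pooled over the 5 states. Those states are not independent, so the p-values may be too small. Both proteins were compared with the same 4 vehicle libraries. Exact two-sided permutation of the percentages over libraries gave p = 0.514, 0.371 and 0.319 in the same order (0.643, 0.371 and 0.399 after adjustment over the 5 states), and p = 0.333 for both proteins when libraries were permuted within batch. Limma called 0 of 5 states after FL-NfL (0.0%, with 1 at an unadjusted p under 0.05 and 0 called by a quasi-binomial model). It called 2 of 5 after CC-NfL (40.0%) and 2 of 5 for both proteins (40.0%), and Activated_3 was in none of these counts. The count after CC-NfL was 0 without any 1 of the 3 CC-NfL libraries. The count for both proteins was 0 without vehicle library 3, FL-NfL library 1 or 2 or CC-NfL library 2, and 1 without vehicle library 1 or CC-NfL library 1 or 3. For Activated_3 a difference from vehicle was not established, and each interval holds both decreases and increases.

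Vehicle libraries 1 and 2 set the size of the limma estimate. Without vehicle library 1 the vehicle mean was 4.82% ± 1.15 (n = 3), and limma put the proteins together at 0.0085 on the log2 odds scale (adjusted p = 0.976). It was -0.019 (adjusted p = 0.953) for FL-NfL and 0.036 (adjusted p = 0.912) for CC-NfL. Without vehicle library 2, the vehicle library with the highest share, it was 1.55 for both proteins (adjusted p = 0.0164), 1.58 for CC-NfL (adjusted p = 0.0228) and 1.52 for FL-NfL (adjusted p = 0.0845). That omission leaves vehicle library 1, with 5 Activated_3 cells, as the only vehicle library of b1. Leaving out FL-NfL library 1, the highest of all, gave 0.46 for FL-NfL, and leaving out FL-NfL library 3 gave 1.41. For both proteins these last omissions gave 0.72 and 1.21, and leaving out any 1 of the remaining 6 libraries gave 0.91 to 1.07. The libraries numbered 1 of the 3 groups, left out together as a choice made after seeing the data, took it to -0.060. Vehicle libraries 1 and 2, the lowest and the highest of their group, are both of batch b1.

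**Figure D2:**
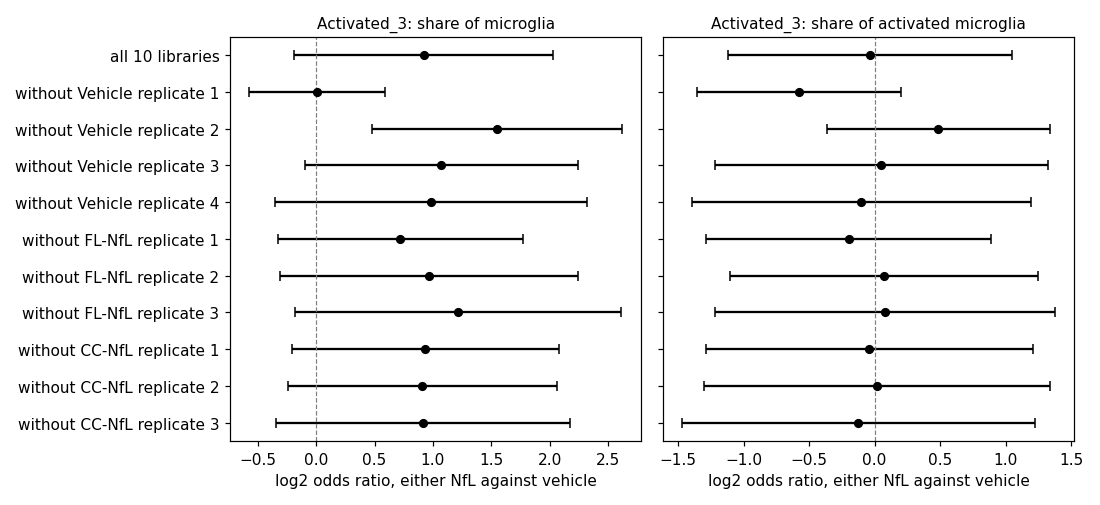
Log2 odds ratio of Activated_3 for both proteins together against vehicle, with limma's 95% interval, over all 10 libraries and with each library left out; the left panel takes shares of microglia and the right panel shares of activated microglia, and the dashed line marks no difference. On the left the estimate moves from 0.92 to 0.0085 without vehicle replicate 1 and to 1.55 without vehicle replicate 2.

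The batches gave different pictures of the same contrast. In b1 Activated_3 averaged 3.31% of microglia in vehicle libraries (2 libraries), 5.67% in FL-NfL libraries (2) and 4.47% in CC-NfL libraries (2). In b2 it averaged 4.20% in vehicle libraries (2 libraries), 3.97% in FL-NfL libraries and 6.38% in CC-NfL libraries, the last 2 values from 1 library each. Against these means FL-NfL was higher in b1 and lower in b2, and CC-NfL higher in both. Without vehicle library 1, however, the b1 vehicle value is that of library 2 alone, 6.08%, and both proteins were then lower than vehicle in b1. The effect of both proteins in b2 minus that in b1 was -1.12 on the log2 odds scale (SE 1.23, adjusted p = 0.386 for the interaction in limma). That difference also depended on the vehicle libraries of b1, at 0.62 without vehicle library 1 and -2.85 without vehicle library 2. Each of these omissions leaves 1 vehicle library in b1, whose spread cannot be estimated, so only the size is given. Without library 2 the remaining one rests on 5 cells. The batch term for Activated_3 was 0.52 (b2 minus b1, SE 0.54, adjusted p = 0.836).

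No difference in this state was established between FL-NfL and CC-NfL. The difference in log2 odds was -0.06 (SE 0.67, interval -1.44 to 1.33, adjusted p = 0.935 in limma), and exact permutation of the percentages gave p = 1.00, where 3 against 3 libraries allow no less than 0.1. The sign turned without FL-NfL library 2 (0.060) or FL-NfL library 3 (0.40). Between FL-NfL and CC-NfL limma called 0 of 5 states (0.0%), with 0 below 0.05 before adjustment and 0 called by the quasi-binomial model. The interval is wide in both directions, so a difference of either sign remains possible.

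A share of microglia moves when other microglial states move, so Activated_3 was also counted against all annotated cells. It made up 0.129%, 2.28%, 1.55% and 1.30% of annotated cells in the vehicle libraries, 2.46%, 1.43% and 0.989% after FL-NfL, and 1.41%, 1.71% and 1.87% after CC-NfL. FL-NfL libraries spanned more than the vehicle libraries other than number 1, and the CC-NfL libraries lay within the vehicle range. The means were 1.31% ± 0.893, 1.63% ± 0.758 and 1.66% ± 0.232. Over 20 states and classes tested together, the log2 odds ratio was 0.83 for FL-NfL (SE 0.91, adjusted p = 0.930), 0.95 for CC-NfL (SE 0.91, adjusted p = 0.582), 0.89 for both (SE 0.77, adjusted p = 0.623) and -0.12 between the proteins (SE 0.96, adjusted p = 0.918), all in limma. The quasi-binomial model gave 0.049, 0.38, 0.21 and -0.33 in the same order (adjusted p = 0.929, 0.631, 0.743 and 0.720). Of these 20 limma called 2 after FL-NfL (10.0%), 0 after CC-NfL (0.0%, with 4 at an unadjusted p under 0.05 and 4 called by the quasi-binomial model), 2 for both (10.0%) and 0 between the proteins (0.0%, with 1 and 0). Activated_3 was not among the calls of either tool. Without vehicle library 1 the limma estimates were -0.28, -0.16 and -0.22 for FL-NfL, CC-NfL and both, and without vehicle library 2 they were 1.52, 1.64 and 1.58. Between the proteins the sign turned without FL-NfL library 3 (0.49). For vehicle, FL-NfL and CC-NfL in that order, the means were 1.20%, 1.95% and 1.56% in b1, and in b2 1.42%, 0.989% and 1.87%.

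Of the 108266 barcodes, 39352 carry no annotation, and whether Activated_3 cells are among them is not known. The annotated part differed between libraries. It was 4220 of 14726 barcodes in FL-NfL library 1, 3290 of 6617 in vehicle library 2 and 9761 of 11878 in vehicle library 3. A share of all barcodes moves with that part too. As a share of all barcodes Activated_3 was 0.0663%, 1.13%, 1.27% and 1.04% in the vehicle libraries, 0.706%, 0.828% and 0.818% with FL-NfL and 0.663%, 0.989% and 1.48% with CC-NfL. On this base all 3 FL-NfL libraries lay below vehicle libraries 2 to 4, and FL-NfL library 1 was no longer the highest. The mean was 0.879% ± 0.550 for vehicle (1.15% ± 0.115 without library 1), 0.784% ± 0.0676 for FL-NfL and 1.04% ± 0.411 for CC-NfL. The FL-NfL mean was thus below the vehicle mean, while its log2 odds ratio was 0.64 (SE 0.86, adjusted p = 0.821 in limma). For CC-NfL that ratio was 0.98 (SE 0.86, adjusted p = 0.643) and for both proteins 0.81 (SE 0.73, adjusted p = 0.738).

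Among activated microglia, the sum of Activated_1, Activated_2 and Activated_3, the share of Activated_3 asked whether the state moved together with the other activated states. It was 5.10%, 23.5%, 19.5% and 15.0% in the vehicle libraries, 19.3%, 9.57% and 15.3% after FL-NfL and 11.0%, 9.46% and 17.2% after CC-NfL. The highest 2 shares were vehicle libraries and so was the lowest, which rests on 5 of 98 cells. Means and SDs were 15.8% ± 7.91, 14.7% ± 4.87 and 12.6% ± 4.12. The log2 odds ratio was 0.09 for FL-NfL (SE 0.55, adjusted p = 0.870 in limma over 3 states), -0.16 for CC-NfL (SE 0.55, adjusted p = 0.776), -0.03 for both (SE 0.47, adjusted p = 0.943) and 0.26 between the proteins (SE 0.58, adjusted p = 0.890). Exact permutation gave p = 0.971, 0.543, 0.590 and 0.600. Of the 3 activated states limma called 1 after FL-NfL (33.3%), 1 after CC-NfL (33.3%), 2 for both (66.7%) and 0 between the proteins (0.0%, with 0 at an unadjusted p under 0.05), none of them Activated_3. Without vehicle library 1 the remaining vehicle libraries averaged 19.3% ± 4.26, and the estimates were -0.45 (adjusted p = 0.279), -0.71 (adjusted p = 0.105) and -0.58 (adjusted p = 0.126) for FL-NfL, CC-NfL and both. Without vehicle library 2 the estimate was 0.36 for CC-NfL and 0.49 for both (adjusted p = 0.420 and 0.224). Without FL-NfL library 1 it was -0.26 for FL-NfL and -0.13 between the proteins. The estimate for both also turned positive without vehicle library 3 (0.050), FL-NfL library 2 (0.070), FL-NfL library 3 (0.080) or CC-NfL library 2 (0.018). In b1 the means were 14.3%, 14.4% and 10.2% for vehicle, FL-NfL and CC-NfL, and in b2 17.2%, 15.3% and 17.2%.

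**Figure D3:**
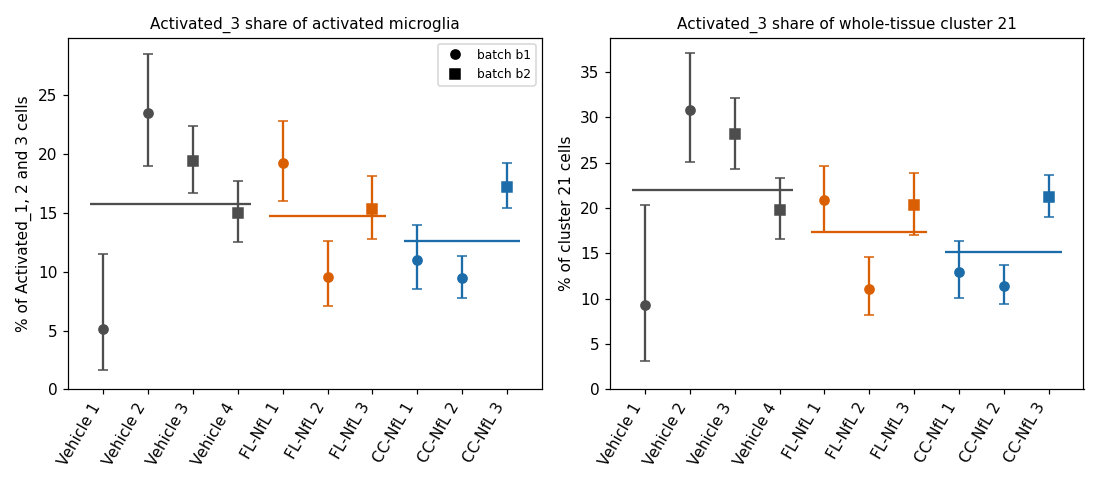
Activated_3 cells of each library as a percentage of its activated microglia (left) and of its cells in whole-tissue cluster 21 (right); points are libraries, circles batch b1 and squares batch b2, error bars exact 95% counting intervals, horizontal lines group means. Vehicle libraries hold both the lowest (5.10%) and the highest (23.5%) share of activated microglia.

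Set against single states, Activated_3 numbered 10.9, 51.7, 37.8 and 27.8 cells per 100 Activated_2 cells in the vehicle libraries. The corresponding values were 34.7, 16.5 and 24.7 after FL-NfL and 19.0, 14.6 and 28.3 after CC-NfL. All 6 protein libraries lay inside the vehicle range, and 4 of them below vehicle libraries 2 to 4. On the log2 scale the ratio of Activated_3 to Activated_2 differed by -0.30 for both proteins against vehicle (SE 0.61, adjusted p = 0.631 in limma over the 4 ratios), by -0.77 without vehicle library 1 (adjusted p = 0.272) and by 0.18 without vehicle library 2 (adjusted p = 0.755). Whether Activated_3 responds less than Activated_2 was therefore not established by the test of that difference.

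Per 100 homeostatic cells there were 0.613, 8.82, 6.32 and 5.59 Activated_3 cells in the vehicle libraries, 13.8, 6.66 and 5.51 in those given FL-NfL and 7.72, 10.9 and 11.4 in those given CC-NfL. CC-NfL libraries 2 and 3 and FL-NfL library 1 exceeded every vehicle library, and FL-NfL library 3 lay below vehicle libraries 2 to 4. This log2 ratio differed by 1.29 for both proteins (SE 0.61, adjusted p = 0.184), by 0.27 without vehicle library 1 (adjusted p = 0.743) and by 1.92 without vehicle library 2 (adjusted p = 0.0103). The last value leaves vehicle library 1, with 5 Activated_3 cells, as the only vehicle library of b1. Per 100 Activated_1 cells there were 10.6, 75.8, 66.8 and 48.3 in the vehicle libraries, 76.5, 29.4 and 67.9 in those given FL-NfL and 35.7, 36.5 and 78.8 in those given CC-NfL, with wide overlap of the groups. The ratio to Activated_1 differed by 0.43 (SE 0.61, adjusted p = 0.631), by -0.18 without vehicle library 1 and by 1.02 without vehicle library 2. The ratio to proliferating cells differed by 0.68 (SE 0.61, adjusted p = 0.555), by 0.13 without vehicle library 1 (adjusted p = 0.743) and by 1.22 without vehicle library 2 (adjusted p = 0.0829). Limma called 0 of the 4 ratios for both proteins (0.0%), with 1 at an unadjusted p under 0.05. These ratios were compared after the shares had been seen.

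Nearly all Activated_3 cells came from a single cluster of the whole-tissue annotation. Cluster 21 held 1032 of the 1034 (99.8%), and clusters 1 and 30 held 1 each. The 5470 cells of cluster 21 were all microglia, 54.6% of them Activated_2, 18.9% Activated_3, 16.6% Activated_1, 6.80% proliferating and 3.14% homeostatic. The cluster thus took in 99.8% of Activated_3 cells but 75.0% of Activated_2, 49.0% of Activated_1 and 31.9% of proliferating cells. Cluster 21 held on average 99.8% of the Activated_3 cells of a protein library and 99.8% of those of a vehicle library (exact permutation p = 1.00). With 1 cell each in clusters 1 and 30, that test had almost nothing outside cluster 21 to compare and could not show a difference. Activated_3 made up 22.0% ± 9.72 of cluster 21 in vehicle libraries, 17.4% ± 5.48 in FL-NfL libraries and 15.2% ± 5.27 in CC-NfL libraries. Without vehicle library 1, at 9.26%, the vehicle mean was 26.3% ± 5.77.

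On the maps Activated_3 formed a compact group at the edge of Activated_2 and away from homeostatic microglia. Map positions and state names both derive from the expression of the same cells, so the place of the state is a description and was not tested, and distances on a t-SNE map carry no scale. Of the 30 nearest microglia of an Activated_3 cell on the whole-tissue map, 76.2% were Activated_3 on average, 20.1% Activated_2, 1.78% proliferating, 1.59% Activated_1 and 0.326% homeostatic, against 62.9% homeostatic among all microglia. On the map of microglia alone the shares were 85.5%, 11.5%, 1.51%, 1.40% and 0.103%. For the other states, own-state neighbours on the whole-tissue map averaged 92.7% (homeostatic), 87.1% (proliferating), 72.8% (Activated_2) and 44.3% (Activated_1). Activated_3 thus lay within the range of the other states. Among cells of every class, 0.0355% of the nearest neighbours on the whole-tissue map were not microglia. All of these were macrophages of the state that the separate macrophage annotation also names Activated_3.

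**Figure D4:**
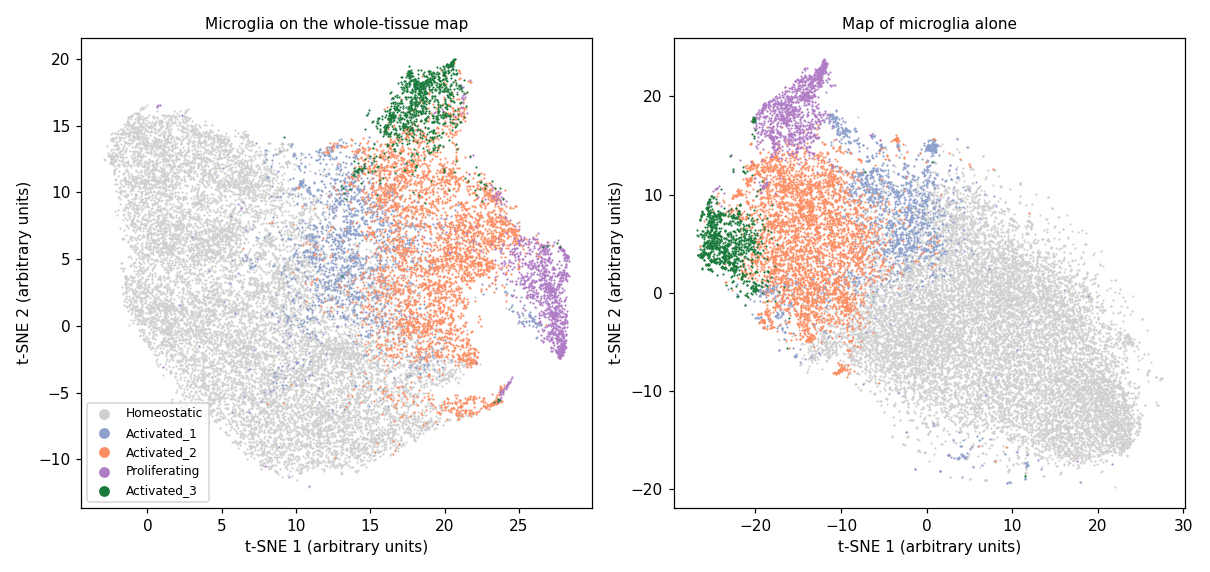
Positions of all 21630 microglia on the authors' whole-tissue t-SNE map (left) and on their map of microglia alone (right), in arbitrary units, coloured by state. The 1034 Activated_3 cells form 1 dense group bordering Activated_2, with a few cells scattered near other states.

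The members were not uniform. On the whole-tissue map 513 of 1034 (49.6%) had at least 90% Activated_3 neighbours, and 195 (18.9%) had fewer than 50%. Most of the latter lay among Activated_2, which supplied the majority of neighbours of 158 cells, while Activated_1 did so for 7, proliferating cells for 4 and homeostatic cells for 1. For 12 cells no neighbour was Activated_3. Conversely, 121 microglia of other states had mostly Activated_3 neighbours, 105 of them Activated_2 and 13 proliferating. On the map of microglia alone the core was larger (753 cells, 72.8%) and the rim smaller (119 cells, 11.5%), with 16 cells mostly among proliferating microglia.

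Activated_3 cells had fewer neighbours of their own state and more of Activated_2 in protein than in vehicle libraries. The margin did not pass after adjustment over 3 tests, 1 of which could not show a difference. The mean share of Activated_3 among the 30 nearest microglia on the whole-tissue map was 85.3%, 80.2%, 81.5% and 74.5% in the vehicle libraries, the first from 5 cells. It was 78.8%, 70.7% and 74.3% after FL-NfL and 67.9%, 71.6% and 77.1% after CC-NfL. All 6 protein libraries lay below vehicle libraries 1 to 3, and 4 of them also below vehicle library 4. Activated_2 took 16.5% of neighbours on average in vehicle libraries and 22.6% in protein libraries. Activated_2 itself averaged 10.6% of microglia in vehicle libraries and 22.9% in protein libraries. Neighbours were taken from the microglia of all libraries together, with no correction for this, and its part in the difference was not tested. The share of own-state neighbours was 73.4% ± 4.10 for both proteins (n = 6) and 80.4% ± 4.48 for vehicle (n = 4), with an exact permutation p of 0.0381 and 0.0571 after adjustment over the 3 tests of map and cluster position. The test of cluster position could not show a difference, and counting it raised the adjusted p. Over all libraries the failed call depends on counting it. Without vehicle library 1 the exact permutation p was 0.107 before adjustment and 0.161 after it. The adjusted p was 0.0476 without FL-NfL library 1 or without CC-NfL library 3. In b1 the means were 82.8% for vehicle and 72.3% for protein libraries, and in b2 78.0% and 75.7%. On the map of microglia alone they were 87.9% and 84.1% over all libraries (exact permutation p = 0.0667, adjusted 0.1). The maps differed in which protein was lower. On the whole-tissue map FL-NfL libraries averaged 74.6% and CC-NfL libraries 72.2%, whereas on the map of microglia alone they averaged 81.9% and 86.3%. Without vehicle library 1 the difference on that map was -2.86 percentage points (exact permutation p = 0.202, adjusted 0.304).

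**Figure D5:**
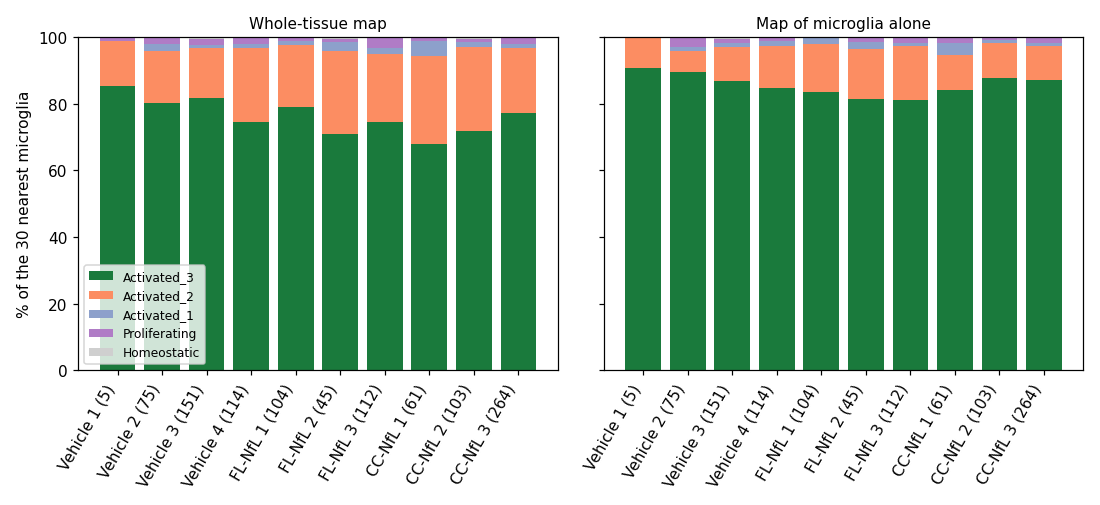
Mean make-up, by state, of the 30 nearest microglia of Activated_3 cells in each library, as a percentage, on the whole-tissue map (left) and on the map of microglia alone (right); numbers in parentheses are the Activated_3 cells of the library. Own-state neighbours on the left run from 67.9% in CC-NfL library 1 to 85.3% in vehicle library 1, and Activated_2 makes up most of the remainder.

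Within the state, libraries of the same group lay closer together on the map, on average, than libraries of different groups, mainly through pairs of vehicle libraries. On the whole-tissue map the highest of those pairs rest on the 5 cells of vehicle library 1. The test of this lost its call without any 1 of several libraries. Among the 30 nearest Activated_3 cells, the log2 of observed over expected neighbours from another library averaged 0.14 for pairs of libraries of the same group and -0.03 for pairs of different groups. The difference was 0.17, with an exact one-sided permutation p of 0.00556 (1080 arrangements of the groups within batch) and 0.0167 after adjustment over the same 3 tests. Within a batch, pairs of the same group averaged 0.23 (4 pairs) and pairs of different groups 0.03 (17 pairs). Across batches they averaged 0.09 (8 pairs) and -0.09 (16 pairs). Vehicle pairs ran from 0.085 to 0.42, FL-NfL pairs from -0.051 to 0.088 and CC-NfL pairs from -0.10 to 0.31. Pairs of an FL-NfL with a CC-NfL library ran from -0.056 to 0.29, so pairs within either protein overlapped those between the proteins. On the map of microglia alone the ranges were 0.13 to 0.33, -0.022 to 0.16, -0.17 to 0.019 and -0.093 to 0.39 in that order. Vehicle pairs with library 1 ran from 0.23 to 0.42 on the whole-tissue map, and those without it from 0.085 to 0.13. Vehicle library 1 with FL-NfL library 1, a pair of different groups, was at 0.39 there. On the map of microglia alone vehicle pairs without library 1 ran from 0.18 to 0.28. The call on the whole-tissue map ended without vehicle library 1 (0.097, adjusted p = 0.05 by exact permutation), vehicle library 2 (0.15, 0.1), vehicle library 3 (0.14, 0.1), vehicle library 4 (0.15, 0.05) or CC-NfL library 2 (0.15, 0.0583). Those adjusted p also count the test of cluster position, which could not show a difference. The losses without vehicle library 1 or 4 or CC-NfL library 2 depend on counting it. Their exact one-sided permutation p was 0.0167, 0.0333 and 0.0194 before adjustment. The losses without vehicle library 2 or 3 do not depend on it (0.0333 each before adjustment). The map of microglia alone gave 0.19 (exact one-sided permutation p = 0.0130, adjusted 0.0389). There the value without vehicle libraries 1 to 4 in turn was 0.13, 0.13, 0.14 and 0.11 (adjusted p = 0.117, 0.0833, 0.133 and 0.183 by exact permutation). The call ended there too without FL-NfL library 2 (0.17, 0.075), FL-NfL library 3 (0.20, 0.0889) or CC-NfL library 3 (0.19, 0.0556). The last of these depends on counting the test of cluster position (exact one-sided permutation p = 0.0185 before adjustment). On the whole-tissue map the same value was 0.33 for Activated_1, 0.34 for Activated_2, 0.21 for proliferating and -0.10 for homeostatic microglia, so the value for Activated_3 lay within the range of the other states, for which no test was run.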

How the data were processed

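Single-cell 3′ libraries were made from dissociated hippocampus, sorted for live cells, with 1 library per mouse. Cell Ranger 6.0.1 and the build GRCm38 are named in the submitters' processing notes. Cell filters, doublet handling, clustering and naming rules were not given in the sources used here. Deposited by the authors, the table holds, per barcode, text labels, cluster numbers and t-SNE positions, scores in arbitrary units that the authors computed, and no gene values.

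Shares were fitted per library as log2((cells + 0.5) / (other cells + 0.5)) by limma 3.58.1 under R 4.3.3, with terms for group and batch over all 10 libraries. Benjamini-Hochberg adjustment ran over the states or classes in the fit (mean of at least 10 cells per library), and an adjusted p under 0.05 was called. Limma pools the spread over states that are not independent, so these p-values may be too small. Ratios used the same pseudocount. Exact permutation of libraries was run on the percentages. A microglial neighbour is 1 of the 30 nearest on the map (scikit-learn 1.9.0). The mixing value compares neighbour counts between libraries with those expected from their sizes, 0.5 added, and its permutation p is one-sided. The fit and the mixing value were tested on simulated data. All 5 states, all 9 subclusters and each whole-tissue cluster with at least 1% of the members were to be named. Clusters 1 and 30 were added after their values were seen. The state and the comparisons were chosen with earlier results of these data known. Alternatives covered the test, scale, pseudocount, denominator, covariates, neighbours and libraries.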

Additional observations from a re-analysis of the deposited data

How the results depend on the processing

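As a share of microglia, the log2 odds ratio of Activated_3 ran, with 1 library left out at a time, from -0.019 to 1.52 for FL-NfL, from 0.036 to 1.58 for CC-NfL, from 0.0085 to 1.55 for both proteins and from -0.52 to 0.40 between the proteins. As a share of annotated cells the ranges were -0.28 to 1.53, -0.16 to 1.64, -0.22 to 1.58 and -0.57 to 0.49, and as a share of activated microglia -0.45 to 0.61, -0.71 to 0.36, -0.58 to 0.49 and -0.13 to 0.50. The number of the 5 states called ran from 0 to 3 for CC-NfL and from 0 to 3 for both proteins. The effect in b2 minus b1 ran from -2.85 to 0.62, the neighbour difference from -8.93 to -5.33 percentage points and the mixing value from 0.097 to 0.22. The log2 ratio to Activated_1 ran from -0.18 to 1.02, that to Activated_2 from -0.77 to 0.18, and that to proliferating cells from 0.13 to 1.22. Without the 3 libraries numbered 1, a choice made after seeing the data, the sign turned for FL-NfL (-0.32 of microglia, -0.55 of annotated cells, -0.71 of activated microglia), for both proteins (-0.060 of microglia, -0.26 of annotated cells), between the proteins (-0.085 of activated microglia) and for the ratio to Activated_1 (-0.26), and 1 state was called between the proteins and 1 for both. In batch b1 only the difference between the proteins was 0.28 of microglia and 0.28 of annotated cells, and that for both proteins 0.0059 of activated microglia. The centred log ratio gave 0.19 between the proteins and called 1 state for FL-NfL, 1 for CC-NfL and 1 for both. The quasi-binomial model called 0 for both. With no batch term FL-NfL was at -0.00075 of activated microglia. On the map of microglia alone with 15 neighbours, the neighbour difference was -5.20 (adjusted p = 0.0357). For these changes the cause was not tested. The minimum of cells removed no microglial state.

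With the replicate number as a block in place of batch, the estimate for both proteins was 0.98 of microglia (adjusted p = 0.186), and no call for the shares or ratios of Activated_3 changed. Number 4 occurs only among vehicle libraries, so the block takes vehicle library 4 out of the comparison. Leaving that library out gave the same estimate of 0.98. The map results and the difference between batches were not fitted with that block. Deviations of same-numbered libraries from their group means correlated above 0.1 in 8 of 9 pairs (lowest 0.075), and 8 of 9 libraries correlated best with their own number, a hint in the data that numbers share something beyond the group. Batch was not taken out of these deviations, and same-numbered libraries were always of the same batch. What the numbers share apart from batch was therefore not tested. The labels tie the numbers to nothing beyond the batches and 1 pair fell below that level, so batch was kept as the term. Precision is limited by 5 to 264 Activated_3 cells per library and by 3 or 4 mice per group.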
